A study of Mus with 15 samples.

Results

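Transcripts of 8 genes known from skeletal muscle were followed in RNA-seq data of the abdominal aorta of 15 mice. The genes were Acta1, Ckm, Myh4, Myh2, Mb, Pvalb, Atp2a1 and Car3, with 1 Ensembl transcript each, and all 8 identifiers are listed for all 15 mice, some with a value of 0, among 108027 Ensembl transcripts that could be compared across all groups. They were chosen by identifier from a fixed list that pairs them with gene names, since the files themselves give identifiers without names. The question was how much skeletal muscle signal each aorta carried, whether it differed between groups, and how it varied between mice.

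All mice were wild-type C57BL/6, male and 8 to 10 weeks old. The Control group (n = 5) was infused with saline for 14 days, the AngII group (n = 5) with angiotensin II at 500 ng/kg/min, and the AngII + QDG group (n = 5) with the same dose of angiotensin II together with Qingda granule, an herbal formula, by mouth at 1.145 g/kg/day. Control and AngII mice were given water by mouth in its place. Mice are numbered 1 to 5 within a group, and equal numbers do not pair mice across groups.

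The abdominal aorta is built mainly of smooth muscle, which has its own actins and myosins, and it runs along the spine beside skeletal muscle and within fat. Skeletal muscle fibres contract through sarcomeres of skeletal actin and of fibre-type myosins, take calcium back into the sarcoplasmic reticulum with a fibre-type pump, and regenerate ATP with creatine kinase. Their contractile transcripts are among the most abundant of any tissue, so a small piece of muscle left on a vessel can give a high reading.

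Values are FPKM, that is, fragments scaled for transcript length and for all mapped fragments, so levels of different transcripts can be set side by side. Over all transcripts of a mouse they summed to between 454587 and 547311. The depth behind them is unknown, and precision rests on the number of mice. The AngII + QDG files follow a different transcript list from the files of the other 10 mice, so that an effect of the list and of QDG cannot be told apart. Markers of smooth muscle were not analysed here, because transcripts are not paired with genes in the files.

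By position in GRCm38, the genes lie apart from each other except for the myosins. Acta1 is on chromosome 8 (123891758 to 123894775), Ckm on chromosome 7 (19411094 to 19421583), Atp2a1 on the same chromosome (126445858 to 126463103) and Car3 on chromosome 3 (14863538 to 14872381). Myh2 (67171027 to 67197517) and Myh4 (67237812 to 67260447) are neighbours on chromosome 11, with 40294 bases between them. Mb (77015487 to 77050668) and Pvalb (78191112 to 78206400) are both on chromosome 15. Coordinates are those of RefSeq for the whole gene, matched by symbol for 8 of 8 genes.

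The 8 transcripts did not behave as 1 set. Acta1 and Atp2a1 ranged over more than 3 orders of magnitude across mice, and Myh2 and Mb followed them at lower levels. Ckm, Myh4 and Pvalb were low or listed at 0 in most mice. Car3 was high in every mouse, and none of its correlations with the others reached an adjusted p below 0.05. The label of skeletal muscle as 1 shared pattern was met by Acta1, Atp2a1, Myh2 and Mb and, at low levels, by Pvalb. Ckm, which was listed at 0 in several mice with much Acta1, and Myh4 met it less clearly. Their r with Acta1 was 0.508 and 0.514, and only that of Ckm had an adjusted permutation p below 0.05. Car3 did not meet it. This grouping was made after the correlations were seen.

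Acta1 (ENSMUST00000034453) encodes skeletal alpha-actin, the thin filament protein of the sarcomere. Its FPKM was 133, 803, 3.53, 1.08 and 3052 in Control mice 1 to 5. In AngII mice 1 to 5 it was 2.90, 1708, 387, 406 and 12.1, and in AngII + QDG mice 1 to 5 it was 379, 4290, 356, 23.9 and 590. High and low mice occurred in each group, and the 3 groups overlapped almost throughout. The highest mouse was 3987-fold above the lowest across all 15, and within a group the factor was 2837 (Control), 590 (AngII) and 180 (AngII + QDG). The actin genes resemble each other closely in sequence, and how fragments shared between them were assigned is not given in the sources used here. In Control mouse 4 the transcript was at 1.08 FPKM in total.

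Atp2a1 (ENSMUST00000032974) encodes SERCA1, the calcium pump of the sarcoplasmic reticulum in fast fibres. Its FPKM was 70.7, 281, 1.20, 0.425 and 779 in Control mice 1 to 5. The AngII mice had 0.409, 433, 144, 169 and 3.68, and the AngII + QDG mice had 167, 1212, 160, 10.4 and 156, in the same order. The mice below 100 FPKM for Acta1 were the lowest for Atp2a1 as well, and the highest mouse of each group was the same for both. In each mouse Acta1 exceeded Atp2a1, by 1.89-fold at the least (Control mouse 1) and 7.08-fold at the most (AngII mouse 1, where both transcripts were low). The ratio of Atp2a1 to Acta1 had a median of 0.349 over the 15 mice. It was 0.254 to 0.530 in the 10 mice with Acta1 above 100 FPKM and 0.141 to 0.436 in the 5 mice below, a limit chosen after the values were seen.

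Myosin heavy chains form the thick filament, and their type marks the type of fibre. Myh2 (ENSMUST00000018641), the myosin of fast oxidative fibres (type IIa), was at 2.73, 40.8, 0, 0 and 187 FPKM in Control mice 1 to 5. It was at 0, 88.5, 34.6, 0 and 0 in the AngII mice and at 0, 339, 5.15, 0 and 36.7 in the AngII + QDG mice. All 5 mice with Acta1 below 100 FPKM were listed at 0 for Myh2. A further 2 mice were listed at 0 although Acta1 was high, AngII mouse 4 (Acta1 at 406 FPKM) and AngII + QDG mouse 1 (Acta1 at 379 FPKM). A listed 0 is given as such, since it can be a failed estimate for 1 transcript of a gene.

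Myh4 (ENSMUST00000018632), the myosin of fast glycolytic fibres (type IIb), was low everywhere. Control mice 1 to 5 had 0.422, 0.117, 0.771, 0 and 1.84 FPKM, AngII mice had 0.0881, 0.997, 0.225, 1.60 and 0.0195, and AngII + QDG mice had 0.227, 0.464, 1.85, 0.0842 and 0.225. Only 3 of 15 mice reached 1 FPKM. In AngII + QDG mouse 2, the mouse with the most Acta1, Myh2 was at 339 FPKM and Myh4 at 0.464 FPKM. The myosin genes of this cluster are similar in sequence, and the division of fragments between their transcripts is uncertain here.

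Mb (ENSMUST00000019037) encodes myoglobin, the oxygen-binding protein of oxidative fibres and heart. It was at 0.709, 5.10, 0, 0 and 18.5 FPKM in Control mice 1 to 5, at 0.493, 4.90, 1.80, 0.718 and 0 in AngII mice, and at 0, 25.1, 1.10, 0 and 4.43 in AngII + QDG mice. The highest mouse of each group for Mb was also the highest for Acta1, Atp2a1 and Myh2. Mb was far below these, at 25.1 FPKM against 4290 FPKM of Acta1 in the same mouse.

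Ckm (ENSMUST00000003643) encodes muscle creatine kinase, which regenerates ATP from phosphocreatine. It was listed at 0 in 10 of 15 mice. These included all 5 Control mice, among them Control mouse 5 with Acta1 at 3052 FPKM. In AngII mice 1 to 5 it was at 0, 3.75, 4.65, 2.38 and 0 FPKM, and in AngII + QDG mice 1 to 5 at 0, 41.9, 5.38, 0 and 0 FPKM. The 5 mice with a value above 0 all had Acta1 above 100 FPKM, and 5 other mice with Acta1 above 100 FPKM were listed at 0. Only 1 transcript of each gene was followed, and other transcripts of Ckm were not analysed here.

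Pvalb (ENSMUST00000005860) encodes parvalbumin, a calcium buffer of fast fibres. Control mice 1 to 5 had 0.564, 0.833, 0.0555, 0.358 and 0.579 FPKM, AngII mice had 0.0397, 1.17, 0.0744, 0.181 and 0.147, and AngII + QDG mice had 0.363, 0.883, 0.452, 0.218 and 0.515. In each group the highest mouse was mouse 2, which in the AngII and AngII + QDG groups was also the highest for Acta1. Pvalb was above 0 in all 15 mice, and reached 1 FPKM in 1 of them.

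Car3 (ENSMUST00000029076) encodes carbonic anhydrase III, an enzyme of slow muscle fibres that is also abundant in fat cells. Its FPKM was 1803, 1282, 2088, 2628 and 1926 in Control mice 1 to 5, 1747, 2341, 1331, 1799 and 1405 in AngII mice, and 1803, 1231, 1473, 1250 and 1469 in AngII + QDG mice. The highest mouse was 2.13-fold above the lowest, and the groups overlapped. Mean FPKM was 1945 ± 487 (SD, n = 5) for Control, 1725 ± 401 (SD, n = 5) for AngII and 1445 ± 231 (SD, n = 5) for AngII + QDG. The mouse with the least Acta1, Control mouse 4, had the most Car3, and the mouse with the most Acta1, AngII + QDG mouse 2, had the least. In the AngII group, however, the mouse with the most Acta1 also had the most Car3.

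**Figure D1:**
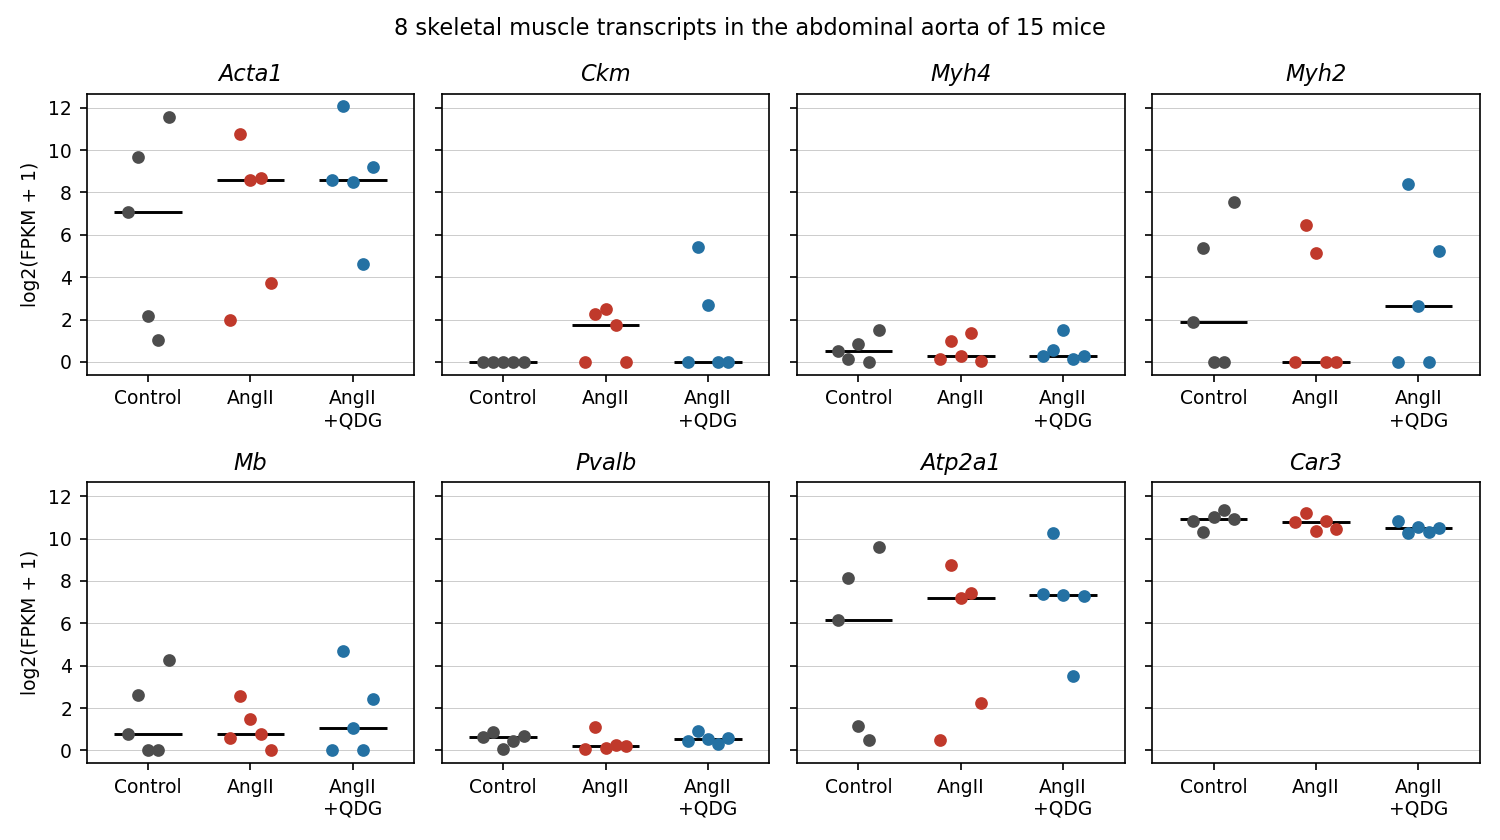
FPKM of each transcript as log2(FPKM + 1), 1 point per mouse in the Control, AngII and AngII + QDG groups (n = 5 each), with points in the order of mouse number and a line at the group median. Acta1 and Atp2a1 spread over most of the axis in each group, Ckm, Myh4 and Pvalb stay near 0 in most mice, and Car3 lies between 1231 and 2628 FPKM.

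The size of the signal was also measured as a sum. Car3 made up 17.2% to 99.9% of the summed FPKM of the 8 transcripts, so the sum was taken without it, a choice made after the values were seen. The other 7 transcripts came to 208, 1131, 5.55, 1.86 and 4039 FPKM in Control mice 1 to 5. In AngII mice they came to 3.93, 2240, 572, 581 and 15.9 FPKM, and in AngII + QDG mice to 547, 5909, 530, 34.6 and 788 FPKM. As a share of all FPKM of a mouse, this was 0.000378% in Control mouse 4 and 1.16% in AngII + QDG mouse 2. Acta1 and Atp2a1 together gave 80.7% to 99.9% of it. The groups overlapped. In RNA of a whole vessel, fewer muscle cells and less RNA per cell cannot be told apart.

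Between the AngII and Control groups, 4 of the 8 transcripts reached 1 FPKM in 5 or more of the 10 mice and were tested, and 0 of them were called by limma (fold change of 2 or more, unadjusted p below 0.05). Across all transcripts tested, 1.50% were called, so that a count of 0 of 4 is near the background, here as in the other comparisons, and is not a result about the members. An adjusted p below 0.05 was reached by 0 of the 4 and by 0.00732% of all, and 0 of the 4 had an unadjusted p below 0.05. The log2 fold change of Acta1 was 0.43 (standard error 2.34, 95% interval -4.78 to 5.64, limma adjusted p = 0.999), that of Atp2a1 was 0.10 (standard error 2.18) and that of Myh2 was -0.64 (standard error 1.86). The direction of Acta1 turned with single mice, and on leaving out each mouse it ranged from -0.88 (without Control mouse 4) to 1.75 (without Control mouse 5). That of Atp2a1 turned as well, from -1.04 (without Control mouse 4) to 1.29 (without AngII mouse 1). Myh2 ranged from -1.38 to -0.059 over the 5 mice that could be left out with Myh2 still passing the filter, and was -1.23 with a pseudocount of 0.1. For Car3 it was -0.17 (standard error 0.22, 95% interval -0.66 to 0.33, limma adjusted p = 0.995). The groups did not part for any of the 4, where 0.732% of all transcripts tested had groups that do not overlap.

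Ckm did not pass the filter in that comparison. It was listed at 0 in 5 of 5 Control mice and 2 of 5 AngII mice, and was above 0 in 3 of 5 AngII mice. As for Myh2, a listed 0 can be a failed estimate. Without a filter, where 0.413% of all transcripts were called, Ckm was the only 1 of the 8 called (unadjusted p = 0.0301, limma adjusted p = 0.855). The Control group had no spread there, and the 2-sided exact permutation test gave p = 0.167. No fold is given against a group listed at 0.

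Between the AngII + QDG and AngII groups, 6 of 8 transcripts were tested and 0 were called (3.53% of all tested), with 0 at an unadjusted p below 0.05. An adjusted p below 0.05 was reached by 0 of the 6 and by 1.73% of all, and 0 of the 6 had groups that do not overlap, against 2.86% of all. The log2 fold change was 1.86 for Acta1 (standard error 1.80, 95% interval -2.15 to 5.86, limma adjusted p = 0.968) and 1.94 for Atp2a1 (standard error 1.72, 95% interval -1.87 to 5.75). On leaving out each mouse these ranged from 0.66 to 2.86 for Acta1 and from 0.76 to 2.85 for Atp2a1, both lowest without AngII mouse 1. For Myh2 it was 0.93 (standard error 1.91), for Mb 0.56 (standard error 0.88) and for Ckm 0.32 (standard error 1.07). Leaving out a mouse gave 0.34 to 1.74 for Myh2 and 0.29 to 0.97 for Mb, each over the 5 mice without which the transcript still passed the filter, and a pseudocount of 0.1 gave 1.55 for Myh2, 0.32 for Mb and -0.20 for Ckm. For Car3 it was -0.24 (standard error 0.19, 95% interval -0.66 to 0.18, limma adjusted p = 0.936).

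Between the AngII + QDG and Control groups, 5 of 8 transcripts were tested and 0 were called (3.64% of all tested), with 0 at an unadjusted p below 0.05. An adjusted p below 0.05 was reached by 0 of the 5 and by 1.81% of all, and 0 of the 5 had groups that do not overlap, against 3.24% of all. The log2 fold change was 2.29 for Acta1 (95% interval -2.37 to 6.94, limma adjusted p = 0.892), 2.04 for Atp2a1 (standard error 1.88), 0.29 for Myh2 (standard error 1.96) and 0.11 for Mb (standard error 1.08). Car3 had the lowest p of the 5, with a log2 fold change of -0.40 (standard error 0.21, 95% interval -0.86 to 0.05, unadjusted p = 0.0773, limma adjusted p = 0.667). Scaled by the 75th percentile of each mouse it was -0.52 (95% interval -0.93 to -0.11, unadjusted p = 0.0184, limma adjusted p = 0.320), and without Control mouse 2 it was -0.55 (95% interval -0.96 to -0.13, unadjusted p = 0.0152, limma adjusted p = 0.370). Neither reached a fold change of 2. On leaving out each mouse, Acta1 ranged from 0.97 (without Control mouse 4) to 3.60 (without Control mouse 5) and Atp2a1 from 0.89 to 3.17 (without the same mice). The direction of Myh2 turned, from -1.004 (without AngII + QDG mouse 2) to 1.43 (without Control mouse 5), and that of Mb turned, from -0.27 to 0.52 over the 5 mice without which it still passed the filter. The median was -0.03 over the 4 members tested in AngII vs. Control (0.02 over all transcripts tested), 0.74 over the 6 of AngII + QDG vs. AngII (0.00 over all) and 0.29 over the 5 tested here (0.02 over all). These medians rest on different members, which the filter set, and are not compared with each other. The 3 comparisons share mice, and each group enters a pair of them.

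For each transcript and comparison, the difference of the mean log2(FPKM + 1) was also tested by a 2-sided exact permutation test over all ways of assigning the 10 mice to the groups. The p-values of these 24 tests ranged from 0.0714 (Car3, AngII + QDG vs. Control) to 0.968 (Myh4, AngII + QDG vs. AngII). The smallest p that 5 mice against 5 allow is 0.00794. For Acta1 the exact p was 0.849 for AngII vs. Control, 0.373 for AngII + QDG vs. AngII and 0.341 for AngII + QDG vs. Control. The intervals of Acta1 and Atp2a1 reach past 4 on the log2 scale on at least 1 side in each comparison, so differences of that size are not excluded by these data. For Car3 the intervals exclude a fold change of 2 in either direction in all 3 comparisons.

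**Figure D2:**
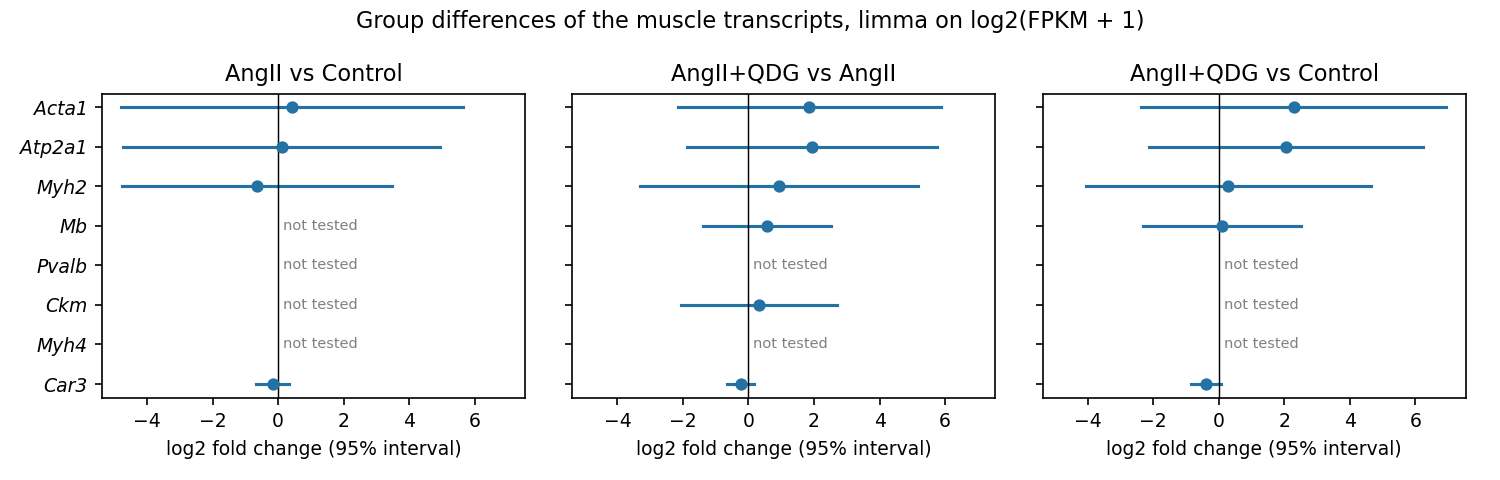
Log2 fold change (point) with its 95% interval (line) from limma for the transcripts tested in each comparison, 5 mice against 5, on the log2(FPKM + 1) scale. The interval of each transcript crosses 0, and those of Acta1, from -4.78 to 5.64 in AngII vs. Control, are far wider than those of Car3, from -0.66 to 0.33.

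Variation between mice of the same group was then measured as the within-group standard deviation (SD) of log2(FPKM + 1), pooled over the 3 groups, and ranked among the 23914 shared Ensembl transcripts that reached 1 FPKM in 5 or more of the 15 mice. The median of all was 0.405, and the 90th percentile was 0.974. Acta1 had an SD of 3.74, and 7 of the 23914 transcripts had a larger one. For Atp2a1 it was 3.45 (13 larger) and for Myh2 3.41 (15 larger).

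Mb, at 1.67, and Ckm, at 1.56, varied more than 98.2% and 97.7% of the transcripts. Both were listed at 0 in several mice, and a pseudocount of 1 compresses the spread of low values. Car3, at 0.314, varied less than the median transcript, with 34.2% of the transcripts below it. Myh4 (0.584) and Pvalb (0.335) did not pass the filter and were not ranked. By group, the SD of Acta1 was 4.59 among Control mice, 3.71 among AngII mice and 2.65 among AngII + QDG mice, which were not compared by a test.

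**Figure D3:**
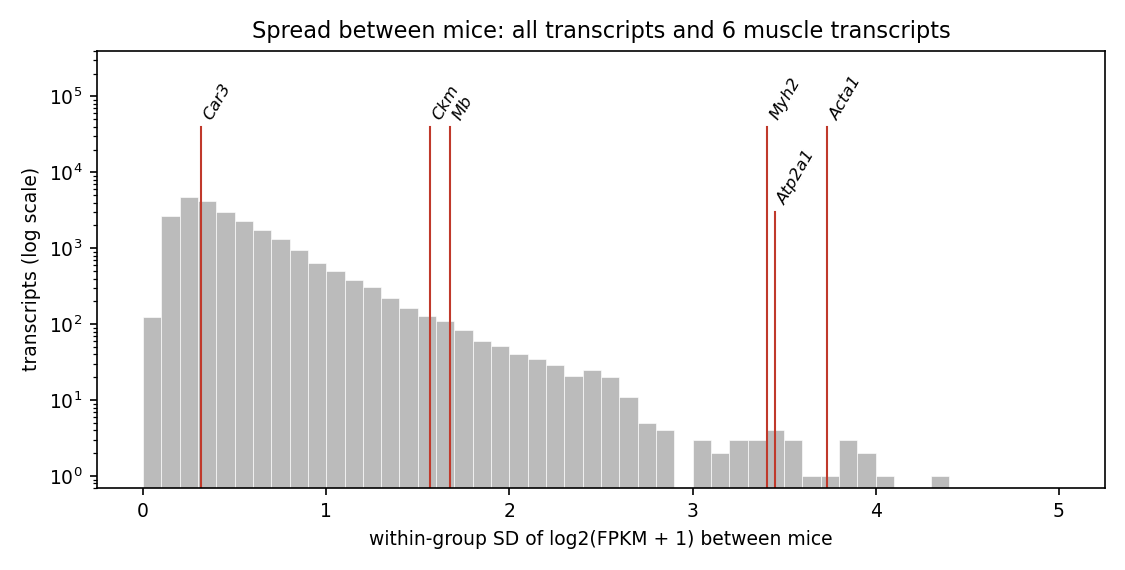
Histogram of the within-group SD of log2(FPKM + 1) between mice for 23914 transcripts (grey bars, bins of 0.1, log count axis), with red lines at the 6 muscle transcripts that passed the filter. Acta1, Atp2a1 and Myh2 lie at the far right, between 3.41 and 3.74, and Car3 at 0.314 lies within the main body of transcripts.

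To ask whether the transcripts varied together between mice apart from any group difference, group means were subtracted from log2(FPKM + 1) and each of the 28 pairs was correlated over the 15 mice. Acta1 and Atp2a1 had a Pearson's r of 0.996 and a Spearman's rho of 0.986 (permutation p = 1e-05 for both, the smallest that 100000 permutations give, adjusted p over the 28 pairs = 0.00028). Without the 2 mice farthest from the median of Acta1, r was 0.995. Among the 10 mice with Acta1 above 100 FPKM alone, r was 0.987.

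Myh2 and Mb had an r of 0.954 and a rho of 0.95 (adjusted permutation p = 0.00028), with 8 mice in which both were above 0. Acta1 had an r of 0.832 with Myh2 (adjusted permutation p = 0.00616) and of 0.818 with Mb (adjusted permutation p = 0.00355). All 6 pairs among Acta1, Atp2a1, Myh2 and Mb had an adjusted p of at most 0.00693, with r between 0.780 and 0.996, and between 0.729 and 0.995 without the 2 farthest mice. In the plot of levels against Acta1, Atp2a1 lies along a line over the whole range, while Myh2 and Mb leave 0 only in mice with much Acta1, apart from Mb at 0.493 FPKM in AngII mouse 1.

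**Figure D4:**
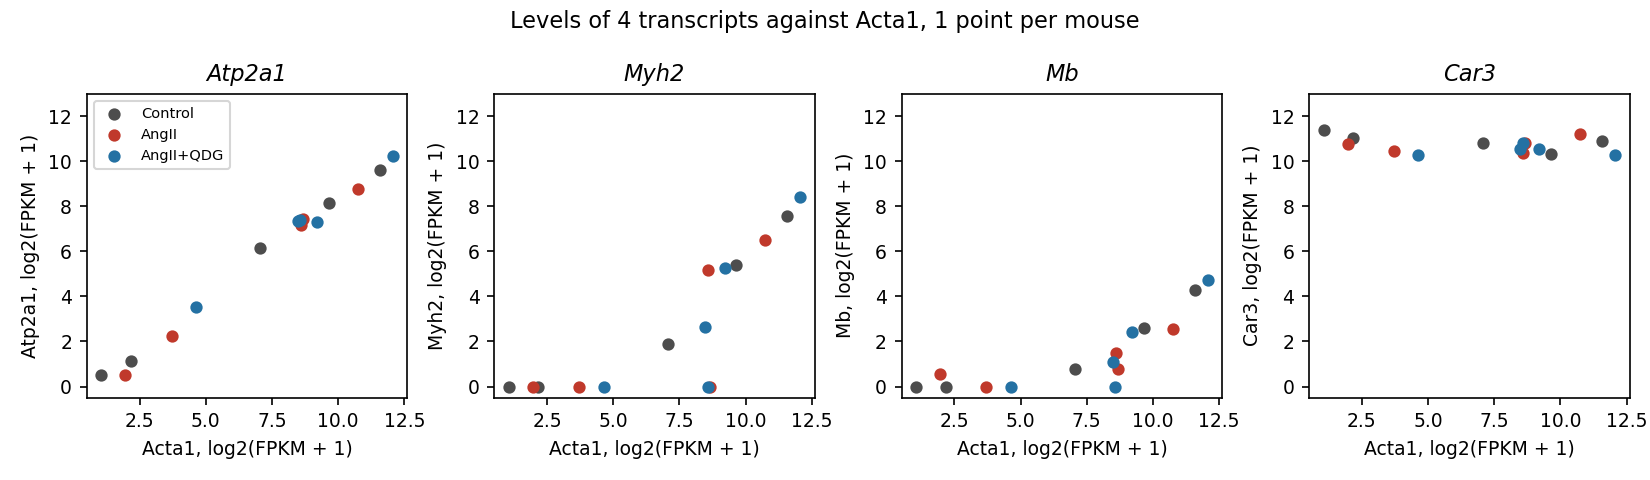
Levels of Atp2a1, Myh2, Mb and Car3 against Acta1, each as log2(FPKM + 1), 1 point per mouse (n = 15), coloured by group. Atp2a1 rises with Acta1 from the lowest to the highest mouse, Myh2 is listed at 0 in 7 mice and Mb in 5, and Car3 varies by 2.13-fold while Acta1 goes from 1.08 to 4290 FPKM.

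Pvalb, although low, was correlated with Acta1 (r = 0.723, rho = 0.757, adjusted permutation p = 0.00737), and likewise with Myh2, Mb and Atp2a1 (r between 0.685 and 0.721). The r with Acta1 was 0.749 without Control mouse 4 and AngII mouse 1, the farthest from its median. Ckm had an r of 0.508 with Acta1 (adjusted permutation p = 0.0436) and of 0.524 with Atp2a1 (adjusted permutation p = 0.0321), with 5 mice above 0. By Spearman's rho the pair of Ckm and Acta1 missed the threshold (rho = 0.48, adjusted permutation p = 0.053). Myh4 had no pair with an adjusted p below 0.05, and its highest r was 0.524, with Atp2a1. Its r with Acta1 was 0.514 (adjusted permutation p = 0.127), near that of Ckm. Of all 28 pairs, 12 had an adjusted p below 0.05 by Pearson's r and 11 by Spearman's rho.

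Car3 was correlated with none of the other 7 at an adjusted p below 0.05. Its r was between -0.252 (Myh2) and 0.249 (Myh4), and -0.202 with Acta1 (rho = -0.304, adjusted permutation p = 0.606). Without the 2 mice farthest from the median of the other transcript, the r with Acta1 was 0.0553. Over the 7 pairs it then ranged from -0.427 (Pvalb) to 0.313 (Myh4). The median r over the 28 pairs was 0.519, with a jackknife standard error of 0.145 over mice. All pairs share their libraries, and FPKM of 1 mouse share a common scaling.

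**Figure D5:**
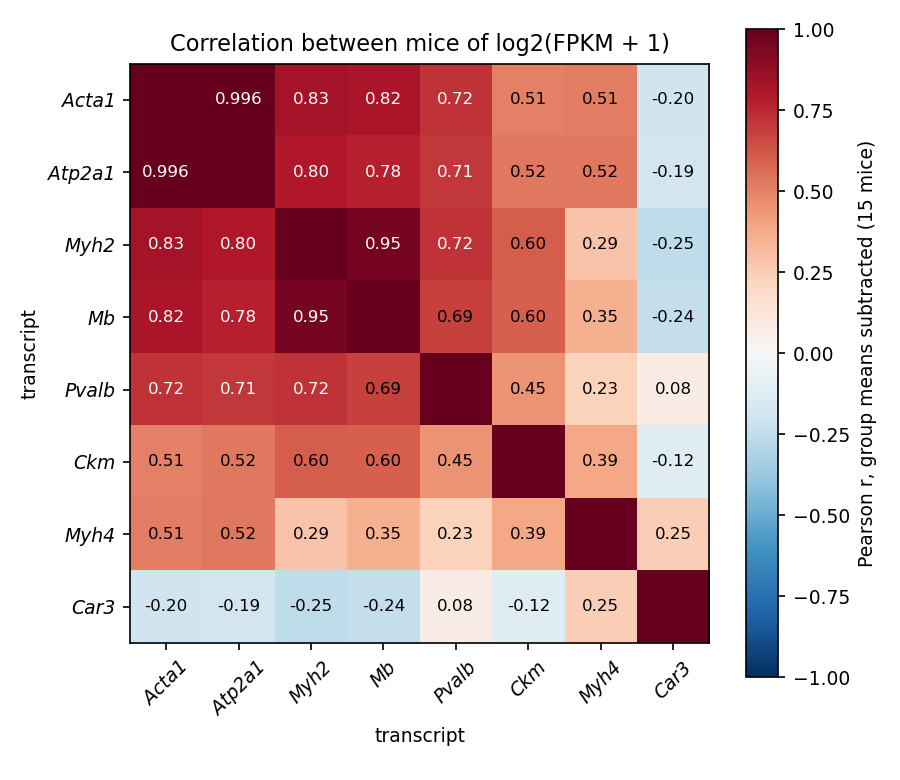
Pearson's r between each pair of transcripts for log2(FPKM + 1) over 15 mice after subtraction of group means (red positive, blue negative, white near 0). Acta1, Atp2a1, Myh2 and Mb, a set chosen after the correlations were seen, have r of 0.780 or more between them. The row of Car3 lies between -0.252 and 0.249.

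Other transcripts with the same pattern between mice were looked for among the 23908 other Ensembl transcripts that passed the 15-mouse filter. With Acta1, 55 of them (0.230%) had an r of at least 0.9 and 243 (1.02%) an r of at least 0.8, against 31 (0.130%) at -0.8 or below, and the highest r was 0.996. The median r over all was -0.130. With the mean of the standardised values of the 8 members, 68 (0.284%) had an r of at least 0.9. The closest to that mean were ENSMUST00000210422 (r = 0.967, rho = 0.936), at 0 to 33.3 FPKM, and ENSMUST00000113685 (r = 0.960, rho = 0.896), at 0.314 to 219 FPKM. Both were highest in AngII + QDG mouse 2, and the files do not pair them with genes. These correlations are a description over 15 mice, without a test.

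The transcripts that followed Acta1 with an r of at least 0.8 were also set beside the calls between groups. In AngII vs. Control, 212 (1.01%) of 21050 tested Ensembl transcripts followed Acta1, and 0 of the 241 called ones did. In AngII + QDG vs. AngII, 224 (1.06%) of 21075 followed it, among them 2 of the 744 called, which is 0.269% of the called and 0.893% of the followers. In AngII + QDG vs. Control, 224 (1.05%) of 21245 followed it, among them 2 of the 774 called, which is 0.258% of the called. The last 2 comparisons share the AngII + QDG mice. Followers were picked by their variation within groups, which for Acta1 was larger than for nearly all transcripts. A large spread within groups makes a call less likely. These shares therefore do not measure how far muscle signal entered the calls.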

How the data were processed

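RNA-seq values of 15 abdominal aortas were used, with groups and the dose from the labels and the route and age from the methods. Per the methods, the authors aligned reads to GRCm38/mm10 with HISAT2 (v2.1.0) and quantified transcripts with StringTie (v1.3.3b). The deposited values are FPKM, 1 per transcript and mouse, already scaled by the authors for length and mapped fragments. The headers do not name the unit. It was read from the tool and from the values.

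The 10 mice of each comparison were fitted alone by limma 3.58.1 (R 4.3.3; eBayes with trend) on log2(FPKM + 1), and transcripts that reached 1 FPKM in 5 or more of these mice were kept. A call needed an unadjusted p below 0.05 together with a fold change of 2 or more. Fold changes are on the log2(FPKM + 1) scale, and those of low transcripts depend on the pseudocount. Benjamini-Hochberg adjustment covered all transcripts tested. Comparisons with AngII + QDG used the 108027 Ensembl transcripts of both lists. Exact permutation tests and correlations (100000 permutations of mice within groups) were run in SciPy 1.17.1. Scripts were tested on simulated data.

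The 8 members, the lists and the tests were chosen with earlier results of these data known. All 8 members are named, together with the pair of other transcripts closest to the mean of the 8. The transcripts closest to Acta1 alone are others and are not named. Lists of other muscle genes and of markers of smooth muscle, fat, heart and endothelium needed a pairing of transcripts with genes and were not used here, and neither were sequences. Alternatives changed or dropped the filter, the pseudocount (0.1), the samples of the fit (1 fit of all 3 groups) or the scaling (75th percentile), or left out each mouse.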

Additional observations from a re-analysis of the deposited data

Results flagged for a closer look

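Mice that stood apart from the other 4 in FPKM, by a gap to the nearest mouse of over 0.71 of the whole range, were looked for in 26 sets of values (8 transcripts and their sum, in 3 groups, without Ckm in the Control group, where all are listed at 0), and 13 were found. Chance gives about 1 in 20, or 1.3, for normally distributed values, which FPKM over such a range are not, and the transcripts are not independent of each other. On the log2(FPKM + 1) scale, a comparison added after seeing the data, 2 of the 13 were found, Pvalb in AngII mouse 2 (a gap of 0.827 of the range) and the sum of 8 in Control mouse 5 (0.753).

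Of the 13, 6 were in AngII + QDG mouse 2. Acta1 was at 4290 FPKM there against 590 in the next mouse, Atp2a1 at 1212 against 167, Myh2 at 339 against 36.7, Mb at 25.1 against 4.43, Ckm at 41.9 against 5.38, and the sum of 8 at 7141 against 2350. Control mouse 5 gave 4, with Acta1 at 3052 against 803, Myh2 at 187 against 40.8, Mb at 18.5 against 5.10 and the sum at 5965 against 2630. AngII mouse 2 gave Acta1 at 1708 against 406 and Pvalb at 1.17 against 0.181. Myh4 at 1.85 in AngII + QDG mouse 3 against 0.464 was the last. For Acta1 the gap above the next mouse was 0.183 (Control), 0.236 (AngII) and 0.385 (AngII + QDG) of the range on the log2 scale, so that its highest mice stood apart in FPKM and not on the log2 scale. The cause was not tested.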

How the results depend on the processing

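Of the log2 fold changes recomputed for the members under an alternative, 171 kept their direction and 20 reversed, all without passing the threshold. Without a filter, the number of members called was 1 in AngII vs. Control (Ckm, where the 5 Control mice are listed at 0), beside 0.413% of all transcripts. With a pseudocount of 0.1, the log2 fold change of Ckm in AngII + QDG vs. AngII turned to -0.20. On leaving out each mouse, it ranged from -0.0065 to 0.72 for Ckm there, over 5 of 10 mice. The transcript no longer passed the filter without AngII mouse 2, 3 or 4 or AngII + QDG mouse 2 or 3. In AngII vs. Control it ranged from -0.88 (without Control mouse 4) to 1.75 (without Control mouse 5) for Acta1, and from -1.04 (without Control mouse 4) to 1.29 (without AngII mouse 1) for Atp2a1. In AngII + QDG vs. Control it ranged from -1.004 (without AngII + QDG mouse 2) to 1.43 (without Control mouse 5) for Myh2, and from -0.27 (without Control mouse 3) to 0.52 (without AngII + QDG mouse 1) for Mb, over 5 of 10 mice. Mb did not pass the filter without Control mouse 2 or 5 or AngII + QDG mouse 2, 3 or 5. The mean log2 of the summed FPKM, which changed by -0.33, 0.18 and -0.14 in AngII vs. Control, AngII + QDG vs. AngII and AngII + QDG vs. Control, changed by 0.36, 1.92 and 2.28 without Car3, a choice made after seeing the data, and Car3 was 17.2% to 99.9% of the sum. With all 8, leaving out each mouse gave -0.59 (without AngII mouse 2) to -0.047 (without Control mouse 5) in AngII vs. Control. For AngII + QDG vs. AngII it gave -0.20 (without AngII + QDG mouse 2) to 0.45 (without AngII mouse 2). For AngII + QDG vs. Control it gave -0.52 (without AngII + QDG mouse 2) to 0.14 (without Control mouse 5). In the same order, 75th percentile scaling gave -0.29, 0.033 and -0.26. The sum without Car3 was not recomputed on leaving out a mouse. It is made up mainly of Acta1 and Atp2a1, which turned direction with single mice in AngII vs. Control. The median r over all pairs was 0.519, over those without Car3 0.603, and over the 6 pairs of Acta1, Atp2a1, Myh2 and Mb 0.825, both subsets chosen after seeing the correlations, so that the last value restates the choice. Under 1 FPKM in every mouse, 9 values could not be had, and on leaving out a mouse 25, since the transcripts no longer passed. No paired analysis was possible because the labels give the groups no shared mouse numbers. Depth is unknown, so listed zeros have no limit from counting.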
